A study of Mus musculus with 6 samples.

Results

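The serpins are a family of protease inhibitors, and their transcripts were followed here in RNA of mouse embryos labelled as a knockout of latrophilin-2. All 63 symbols that begin with Serpin were taken from the 24421 gene symbols of the count tables. By clade letter they comprised 25 symbols of clade A, 27 of clade B, 3 of clade E, 2 each of clades F and I, and 1 each of clades C, D, G and H. RNA came from 3 samples labelled homozygous for a knockout of Lphn2, the latrophilin-2 gene now named Adgrl2, and 3 labelled wild type. Each sample is labelled whole embryo, from C57BL/6N mice, and embryonic day 9.5. The labels name no promoter, Cre or second allele, and do not say which part of Lphn2 was deleted, nor how many embryos or litters a sample stands for. The question addressed is how transcript levels stand in the knockout of a receptor that the series names as a marker of cardiac progenitors.

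A serpin works as bait. A protease cuts an exposed loop of the inhibitor, the serpin snaps into a new shape and the protease is trapped in a covalent complex, so that both are used up. Clade A members are mostly secreted and many circulate in plasma, made by the liver in the adult and by the yolk sac in the early conceptus. Clade B members mostly stay inside cells and guard the cytosol against proteases of granules and lysosomes. A few members inhibit nothing: Serpinh1 is a collagen chaperone and Serpina6 carries corticosteroids. In rodents several human genes have multiplied into clusters of close copies, among them Serpina1, Serpina3, Serpinb6 and Serpinb9. At the implantation site the maternal decidua, natural killer cells and the trophoblast of the embryo meet, and members of clades B and E are known there.

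The Serpinb9 cluster on chromosome 13 gave the clearest split between members, and its promoters are shown for that reason. The bases from 130 before to 50 after the annotated start, on the plus strand of GRCm38.p6 from RefSeq, are given for 4 members whose levels followed each other across libraries and for 1 other member of the cluster whose levels did not. Capitals mark each stretch of at least 10 bases that occurs in all 4 of Serpinb9d, Serpinb9e, Serpinb9f and Serpinb9g.
Serpinb9d (chr13:33192825-33193004): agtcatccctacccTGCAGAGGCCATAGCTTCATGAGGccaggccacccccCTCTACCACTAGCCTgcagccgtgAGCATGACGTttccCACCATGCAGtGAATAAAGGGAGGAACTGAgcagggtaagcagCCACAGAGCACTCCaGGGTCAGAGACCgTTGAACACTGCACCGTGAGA
Serpinb9e (chr13:33249478-33249657): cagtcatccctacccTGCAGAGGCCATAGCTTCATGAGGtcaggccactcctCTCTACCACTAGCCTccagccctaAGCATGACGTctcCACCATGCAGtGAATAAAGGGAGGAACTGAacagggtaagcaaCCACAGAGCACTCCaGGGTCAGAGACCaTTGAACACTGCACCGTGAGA
Serpinb9f (chr13:33323947-33324126): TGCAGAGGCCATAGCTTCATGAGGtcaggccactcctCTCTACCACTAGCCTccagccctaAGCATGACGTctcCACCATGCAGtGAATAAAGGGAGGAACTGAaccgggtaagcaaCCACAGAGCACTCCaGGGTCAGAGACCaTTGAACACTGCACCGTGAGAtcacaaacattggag
Serpinb9g (chr13:33484660-33484839): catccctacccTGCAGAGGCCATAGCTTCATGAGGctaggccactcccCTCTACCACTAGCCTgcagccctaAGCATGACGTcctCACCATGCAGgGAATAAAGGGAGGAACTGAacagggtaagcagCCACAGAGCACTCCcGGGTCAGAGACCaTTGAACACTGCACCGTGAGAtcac
Serpinb9b (chr13:33027284-33027463): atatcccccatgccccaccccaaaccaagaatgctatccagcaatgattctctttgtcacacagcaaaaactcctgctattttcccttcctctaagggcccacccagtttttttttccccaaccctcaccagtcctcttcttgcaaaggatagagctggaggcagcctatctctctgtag
In each of the 4 windows 124 of 180 bases stood in shared stretches, against 0 of 180 in Serpinb9b. The stretches were defined from these 4 windows, so the contrast with Serpinb9b follows in part from that choice. Over the full 300 bases of the table, the 6 pairs among Serpinb9d to Serpinb9g were 83.2% to 93.4% identical by global alignment. Serpinb9c has 2 listed promoters, of which only the first was compared, and it matched these 4 at 62.3% to 65.1%. The 10 pairs of Serpinb9 or Serpinb9b with Serpinb9c to Serpinb9g lay at 45.2% to 49.6%. Within these, Serpinb9c matched Serpinb9 at 49.6% and Serpinb9b at 46.8%. By its letters this promoter of Serpinb9c thus stood nearer to Serpinb9d to Serpinb9g than to Serpinb9 or Serpinb9b. It was less like those 4 than they were like each other. That is a description and names no factor.

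Levels are given as CPM, counts scaled to a common library total with TMM factors and not divided by transcript length. The targeted gene, listed as Adgrl2, had 140, 25 and 39 counts (5.49, 1.67 and 2.78 CPM) in knockout replicates 1, 2 and 3, against 300, 124 and 611 counts (10.86, 7.55 and 15.9 CPM) in wild type replicates 1, 2 and 3. It was lower in every knockout library but not at 0, and whether its 3′ tags lie in the deleted part is not stated (log2 fold change -1.78 ± 0.5, SE, adjusted p = 0.194). Total counts ranged from 14476809 to 23887717 in knockout and from 18352150 to 36213611 in wild type libraries, and the 63 symbols held 0.509% to 0.604% and 0.354% to 0.627% of them. Markers of tissues around the embryo were present in both groups. The 13 decidual markers summed to 8748, 9743 and 14546 CPM in knockout replicates 1, 2 and 3, against 21748, 38182 and 23873 CPM in wild type replicates 1, 2 and 3. In wild type libraries the sum was carried by Prl8a2, a prolactin relative, at 14989, 28746 and 17981 CPM. In knockout libraries Prl8a2 stood at 2900.04, 1279 and 5335 CPM, beside Des, another of the 13, at 2014, 3530 and 3538 CPM. Of the 13 markers 8 were estimated higher in the knockout and 5 lower. Without overlap, 7 lay above and 3 below wild type, beside 12.1% and 9.39% of all genes tested. The 8 embryonic neural markers summed to 52.2, 11.3 and 15.1 CPM in knockout and 83.6, 58.7 and 755 CPM in wild type libraries. The labelled tissue is the whole embryo, but maternal decidual transcripts were far above these embryonic ones in every library. The 8 embryonic heart markers summed to 21.8, 6.93 and 17.7 CPM in knockout and 83.6, 40.5 and 332 CPM in wild type libraries. Actc1, Myh6, Myh7, Myl4, Tnni1 and Tnnt2 of these were read in every library. The heart factor Nkx2-5 was at 0 in all 3 knockout libraries and in wild type replicate 2, and reached only 0.523 CPM in wild type replicate 3. Knockout replicates 2 and 3 stood apart in trophoblast markers, given with the Serpinb9 cluster. For some serpins the estimate with knockout replicate 1 alone against wild type is also given. A bulk value cannot tell fewer cells of a type from less RNA per cell.

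Of the 63 symbols 16 had 0 counts in all 6 libraries, 19 were read but averaged under 1 CPM over the libraries, and 28 averaged at least 1 CPM. The 28 comprised 7 symbols of clade A, 12 of clade B, 2 each of clades E and F, and 1 each of clades C, D, G, H and I. Just inside this threshold were Serpind1 at 1.06 CPM and Serpinb11 at 1.2 CPM, and just outside it Serpina1b at 0.928 CPM and Serpina1e at 0.798 CPM. The filter for testing passed 27 of the 28, all but Serpina6, and 4 symbols under 1 CPM. Of the 25 clade A symbols 9 were at 0 throughout and 9 more reached at most 0.928 CPM on average, and of the 27 clade B symbols 7 were at 0, the 4 Serpinb3 symbols among them, and 8 more reached at most 0.748 CPM. Serpine3 averaged 0.66 CPM, and Serpini2 had 1 count in 1 library.

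No serpin passed the threshold of an adjusted p of 0.05 between knockout and wild type in the quasi-likelihood test of edgeR, where 0 of 13848 genes were higher and 7 were lower, 0% and 0.0505% of those tested. At an unadjusted p under 0.05, 7 of the 31 tested serpins were higher and 4 lower in the knockout, while 8.68% and 6.86% of all genes were. Limma-voom called 0 serpins in either direction, as against 0 and 7 genes overall. DESeq2 called 1 serpin higher, Serpinb6b, and 2 lower, Serpina1a and Serpina10, with 3.49% and 2.87% of all genes called. All 3 knockout values lay above all 3 wild type values in 6 of the 31 and below them in 6, beside 12.1% and 9.39% of all genes tested. The median log2 fold change was 0.04 over the 31 serpins and -0.04 over all genes. The estimates were split nearly evenly, 16 higher and 15 lower.

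**Figure D1:**
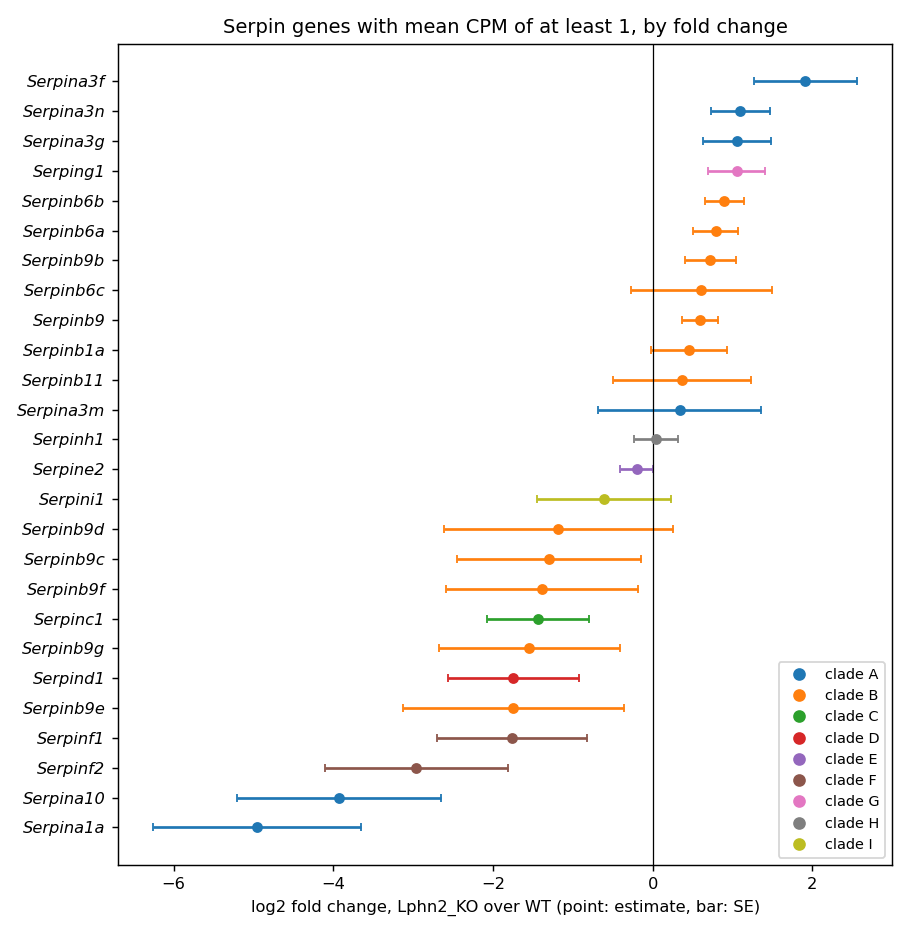
Log2 fold change of knockout over wild type for 26 tested serpins that averaged at least 1 CPM, ordered from the highest at the top, with points as estimates, bars as standard errors and colour by clade. Estimates run from 1.92 for Serpina3f to -4.95 for Serpina1a, with Serpinh1 and Serpine2 near 0 and the widest bars on the negative side.

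Serpinb9 (ENSMUSG00000045827.10, mm10 chromosome 13, 33003250 to 33017957, plus strand), a cytosolic serpin of clade B, inhibits granzyme B, and protects killer lymphocytes and their bystanders from it. It was read at 30.2, 31.3 and 34.9 CPM in knockout replicates 1, 2 and 3, against 19.8, 27.4 and 16.96 CPM in wild type replicates 1, 2 and 3. The groups did not overlap, the knockout averaging 32.2 ± 2.45 CPM and wild type 21.4 ± 5.38 CPM (SD, n = 3 per group). A log2 fold change of 0.59 ± 0.22 (SE) did not pass the threshold (adjusted p = 0.275). Serpinb9b (ENSMUSG00000021403.3, chromosome 13, 33027416 to 33041884, plus strand) stood at 358, 370.1 and 299 CPM in knockout and 253, 257 and 112 CPM in wild type libraries. Its groups did not overlap either, and wild type replicate 3 was the lowest of the 6 (log2 fold change 0.72 ± 0.32, SE, adjusted p = 0.343).

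The remaining 5 copies, Serpinb9c to Serpinb9g, split the knockout libraries. Serpinb9d (ENSMUSG00000054266.2, chromosome 13, 33192959 to 33203129, plus strand) was read at 19.5, 0.2 and 0.285 CPM in knockout replicates 1, 2 and 3, against 17.3, 22.9 and 6.01 CPM in wild type replicates 1, 2 and 3. Knockout replicate 1 thus lay between wild type replicates 1 and 2, while knockout replicates 2 and 3 were read at 3 and 4 counts. Serpinb9e (chromosome 13, 33249612 to 33260850, plus strand) had 14.04, 0.267 and 0.143 CPM in knockout and 19.1, 23.5 and 6.92 CPM in wild type libraries, again with knockout replicate 1 inside the wild type range. Serpinb9f (chromosome 13, 33324077 to 33335370, plus strand) had 10.98, 0.2 and 0.57 CPM in knockout and 12.2, 13.2 and 5.96 CPM in wild type libraries. Serpinb9g (chromosome 13, 33484790 to 33496004, plus strand) had 11.96, 0.867 and 0.57 CPM in knockout and 14.4, 21.4 and 4.08 CPM in wild type libraries. Serpinb9c (chromosome 13, 33149275 to 33159742, minus strand), the copy on the other strand, had 11.9, 1.73 and 0.143 CPM in knockout and 10.9, 18.2 and 5.43 CPM in wild type libraries. In all 5, knockout replicates 2 and 3 were the lowest libraries and wild type replicate 3 was the lowest of wild type. Serpinb9c thus followed the other 4 in its levels, while its first listed promoter shared fewer letters with theirs than theirs did with each other.

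**Figure D2:**
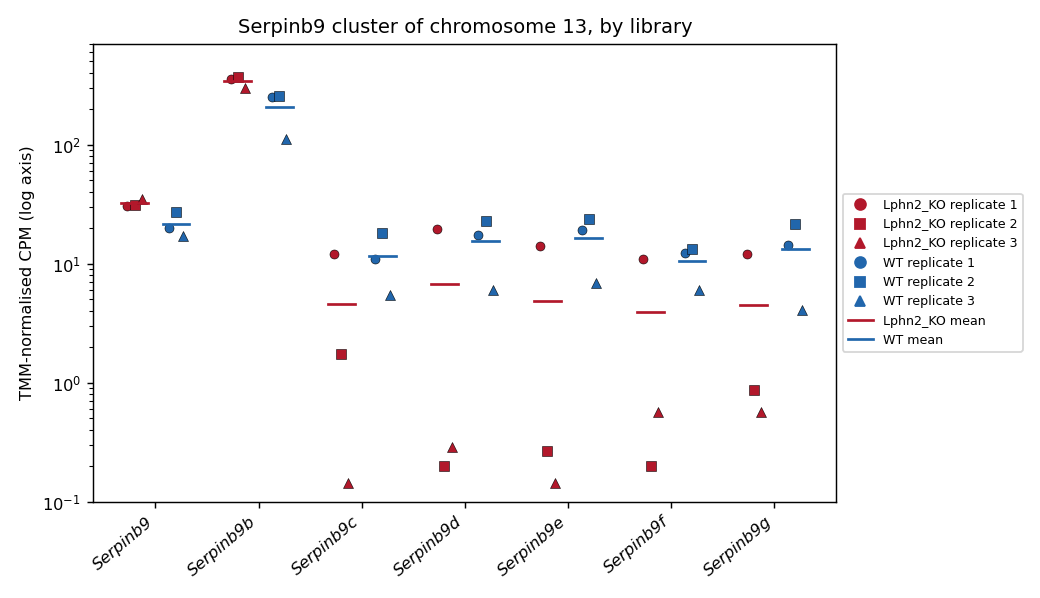
TMM-normalised CPM on a log axis for the 7 symbols of the Serpinb9 cluster, with points for libraries, marker shape for replicate and lines for group means. Serpinb9 and Serpinb9b keep all libraries within a narrow band, while for Serpinb9c to Serpinb9g knockout replicates 2 and 3 lie below 2 CPM and knockout replicate 1 lies within the wild type range.

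Summed over Serpinb9c to Serpinb9g the values were 68.4, 3.27 and 1.71 CPM in knockout replicates 1, 2 and 3, against 73.9, 99.2 and 28.4 CPM in wild type replicates 1, 2 and 3. They made up 14.99%, 0.807% and 0.510% of the counts of the whole cluster in knockout libraries, against 21.3%, 25.9% and 18.1% in wild type libraries. With all libraries, log2 fold changes ran from -1.74 for Serpinb9e to -1.18 for Serpinb9d, with adjusted p between 0.553 and 0.719. Without knockout replicate 1, 4 of the 5 passed the threshold as lower, where 3.27% of genes did. Their log2 fold changes there were -5.96 for Serpinb9d (adjusted p = 0.0236, range over the alternatives 0.0236 to 1), -6.29 for Serpinb9e (adjusted p = 0.0193, range 0.0193 to 1), -4.75 for Serpinb9f (adjusted p = 0.0253, range 0.0253 to 1) and -4.2 for Serpinb9g (adjusted p = 0.0458, range 0.0458 to 1). With knockout replicate 1 alone against wild type, Serpinb9c, Serpinb9d and Serpinb9f turned to 0.0715, 0.36 and 0.0924, and 0 of the 5 passed. The call thus rested on the choice of knockout libraries.

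Trophoblast markers stood in nearly the same order, with wild type replicates 2 and 1 highest, then knockout replicate 1 and wild type replicate 3, and knockout replicates 2 and 3 lowest. The 15 markers summed to 5707, 91.3 and 269 CPM in knockout replicates 1, 2 and 3, against 8459.6, 9441 and 2349 CPM in wild type replicates 1, 2 and 3. Of these markers 12 were tested, all with a lower estimate in the knockout and none with groups that did not overlap. Gcm1, Synb, Ctsq, Tpbpb and Psg21 were at 0 in knockout replicates 2 and 3, and of these Psg21 was also at 0 in knockout replicate 1 and Gcm1, Synb and Ctsq in wild type replicate 3. The part of these tissues in the values of Serpinb9c to Serpinb9g was not tested.

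Serpinb9d to Serpinb9g are so alike that their tags cannot always be assigned. Of the 50-base words in the last 500 bases of their annotated coding transcripts, 26.6% in Serpinb9d, 39.9% in Serpinb9e, all 451 in Serpinb9f and 26.8% in Serpinb9g occurred exactly in a transcript of another gene. The sharing was among these 4 and with the symbol Gm11397. Serpinb9 and Serpinb9b had no such word. How reads that match several genes were counted is not stated. With each multiplied subfamily summed to 1 row, the Serpinb9 cluster had a log2 fold change of 0.43 ± 0.34 (SE, adjusted p = 0.572).

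The Serpinb6 group, whose human relative inhibits the granule protease cathepsin G, was read on the higher side in the knockout. Serpinb6b (ENSMUSG00000042842.11, chromosome 13, 32965209 to 32979067, plus strand) stood at 69.9, 91.2 and 103 CPM in knockout replicates 1, 2 and 3, against 44.1, 60.5 and 37.1 CPM in wild type replicates 1, 2 and 3. Every knockout value lay above every wild type value (log2 fold change 0.9 ± 0.24, SE, adjusted p = 0.185). It passed the threshold with DESeq2 (adjusted p = 0.0297, range over the alternatives 0.0297 to 1). Serpinb6a (chromosome 13, 33917918 to 34002794, minus strand) stood at 392, 654 and 720.2 CPM in knockout and 296, 434 and 293 CPM in wild type libraries, with knockout replicate 1 below wild type replicate 2 (log2 fold change 0.79 ± 0.28, SE, adjusted p = 0.261). With knockout replicate 1 alone its log2 fold change was 0.22. Its annotated span overlaps Ripk1, Nqo2 and 1110046J04Rik on the opposite strand. Serpinb6c had 0.314, 2.2 and 1.85 CPM in knockout and 0.507, 1.77 and 0.601 CPM in wild type libraries, and turned from a log2 fold change of 0.61 with all libraries to -1.57 with knockout replicate 1 alone. The summed Serpinb6 subfamily had a log2 fold change of 0.80 ± 0.28 (SE, adjusted p = 0.253).

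Proteases of killer and myeloid cell granules, listed with perforin, were also read on the higher side. Of the 13 listed, 10 were tested and 0 passed in either direction, and all 10 had every knockout value above every wild type value, as 12.1% of genes did. The median log2 fold change of the 10 was 1.55. Whether Gzmc to Gzmg share reads was not tested. Among the listed genes that were not tested, Gzmk was at 0 throughout and Elane was read only in wild type replicate 3. Prtn3, also not tested, had 0.0392, 0 and 0 CPM in knockout and 0.543, 0 and 2.43 CPM in wild type libraries. Gzma, granzyme A, stood at 53.4, 90 and 75.1 CPM in knockout and 31.5, 29.6 and 19.2 CPM in wild type libraries (log2 fold change 1.45 ± 0.27, SE, adjusted p = 0.166). Gzmb, granzyme B and the target of Serpinb9, stood at 85.7, 161 and 121 CPM in knockout and 36.7, 60.3 and 29.9 CPM in wild type libraries (1.54 ± 0.34, SE, adjusted p = 0.166). The 9 natural killer markers, which share Gzmb and Prf1 with that list, summed to 395, 616 and 475 CPM in knockout and 214, 284 and 122 CPM in wild type libraries, with 9 of 9 estimated higher and 7 above wild type without overlap (12.1% of all genes). The part of cell makeup in the values of Serpinb9 and Serpinb6b was not tested.

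Other clade B members were low. Serpinb1a, an inhibitor of neutrophil elastase, had 2.94, 4.2 and 2.35 CPM in knockout and 3.48, 1.71 and 1.72 CPM in wild type libraries, and the groups overlapped (log2 fold change 0.46 ± 0.47, SE). Serpinb11 had 0.353, 1.93 and 1.78 CPM in knockout and 0.471, 2.01 and 0.679 CPM in wild type libraries. Its estimate of 0.37 turned to -1.54 with knockout replicate 1 alone, and lay at -0.000806 without wild type replicate 1. Serpinb2, plasminogen activator inhibitor type 2, averaged under 1 CPM and is named after its values were seen. It was read at 0, 0 and 2 counts in knockout replicates 1, 2 and 3, against 24, 22 and 28 counts in wild type replicates 1, 2 and 3, with no overlap (adjusted p = 0.194).

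Antichymotrypsin-like serpins of the Serpina3 cluster on chromosome 12 were read on the higher side in the knockout. Their human relative is an acute-phase protein induced in inflammation, and the cluster has expanded in the mouse. Serpina3n (ENSMUSG00000021091.8, chromosome 12, 104406729 to 104414329, plus strand), a secreted member, stood at 28.2, 44.1 and 29.2 CPM in knockout replicates 1, 2 and 3, against 14.6, 23.6 and 9.25 CPM in wild type replicates 1, 2 and 3. The groups did not overlap (log2 fold change 1.1 ± 0.37, SE, adjusted p = 0.241). Serpina3g (chromosome 12, 104236245 to 104241939, plus strand), an intracellular inhibitor of cysteine cathepsins, stood at 5.14, 14.3 and 7.63 CPM in knockout and 4.06, 3.6 and 5.28 CPM in wild type libraries. Knockout replicate 1 lay below wild type replicate 3, and knockout replicate 2 was the highest library (1.06 ± 0.43, SE, adjusted p = 0.302). With knockout replicate 1 alone the log2 fold change of Serpina3g was 0.27. Serpina3f (chromosome 12, 104214544 to 104221129, plus strand) stood at 2.47, 6.2 and 2.35 CPM in knockout and 0.761, 1.65 and 0.549 CPM in wild type libraries, without overlap (1.92 ± 0.65, SE, adjusted p = 0.245).

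Serpina3m had 0.667, 2.6 and 0.855 CPM in knockout and 0.978, 2.19 and 0.131 CPM in wild type libraries, with no order between the groups. Its estimate of 0.34 turned to -0.51 without knockout replicate 2, to -0.22 without wild type replicate 3 and to -0.69 with knockout replicate 1 alone. The 11 symbols of the subfamily summed to 38, 68.5 and 41.2 CPM in knockout and 20.8, 31.4 and 15.6 CPM in wild type libraries, so that each knockout sum lay above each wild type sum. As 1 row the subfamily had a log2 fold change of 1.13 ± 0.34 (SE, adjusted p = 0.207). Serpina3g shared 21.4% of its 3′ end words with other genes and Serpina3f 2.84%, while Serpina3n shared none.

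The letters TTCNNNGAA, the palindromic core to which STAT factors bind, stood in the promoters of Serpina3f, Serpina3g and Serpina3i. They are shown because Serpina3f and Serpina3g are among the members read higher. Serpina3i was not tested, with 14, 6 and 7 counts in knockout replicates 1, 2 and 3, against 6, 5 and 0 counts in wild type replicates 1, 2 and 3. The stretches are from RefSeq on GRCm38.p6, plus strand, with the 9 matching bases in capitals and 30 bases on either side.
Serpina3f (chr12:104214393-104214461): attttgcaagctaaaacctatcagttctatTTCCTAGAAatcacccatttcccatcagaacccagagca
Serpina3g (chr12:104236084-104236152): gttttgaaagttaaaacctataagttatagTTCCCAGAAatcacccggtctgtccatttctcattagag
Serpina3i (chr12:104262990-104263058): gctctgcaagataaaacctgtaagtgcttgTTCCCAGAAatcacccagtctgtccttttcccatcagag
The match began 121, 33 and 102 bases before the annotated start in Serpina3f, Serpina3g and Serpina3i. The promoter of Serpina3n had no match in its 300 bases. Among 52 serpins with a promoter in the table, 8 (15.4%) had TTCNNNGAA, against 8.3% of all 32851 promoters. The other 5 were Serpinb6a, with a positive estimate, Serpinb2 and Serpinb9c, with negative ones, and Serpina11 and Serpina1f, at or near 0 in every library, so the motif went with no 1 direction. For the other motifs searched on both strands, the shares were 11.5% of serpins against 7.86% of all promoters for GAANNTTC, 28.8% against 13.6% for TATAAA, 38.5% against 37.4% for CCAAT and 7.69% against 9.05% for TGATAA. A serpin counts once with any of its promoters here and the background counts promoters, so the shares are not on quite the same base. Matches of TTCNNNGAA and GAANNTTC may overlap, and a match is a description of letters and not a site.

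Serping1 (ENSMUSG00000023224.12, chromosome 2, 84765387 to 84775444, minus strand) encodes C1 inhibitor, which blocks the complement proteases C1r and C1s and the contact proteases kallikrein and factor XII. It was read at 196, 353 and 395 CPM in knockout replicates 1, 2 and 3, against 133, 216 and 107 CPM in wild type replicates 1, 2 and 3. Knockout replicates 2 and 3 lay above all wild type libraries, and knockout replicate 1 lay below wild type replicate 2. The knockout averaged 315 ± 105 CPM and wild type 152 ± 56.9 CPM (SD, n = 3 per group), a log2 fold change of 1.05 ± 0.35 (SE, adjusted p = 0.242). With knockout replicate 1 alone the log2 fold change of Serping1 was 0.39. All 6 counts were multiples of 2, and dividing them by it changed no call. The 9 endothelial markers summed to 2148, 2770.0 and 2385 CPM in knockout and 1562, 2289.6 and 1309 CPM in wild type libraries. These sums overlapped, with knockout replicate 1 below wild type replicate 2. Of the 9 markers 9 were estimated higher, as 6453 of 13848 genes were. Without overlap, 6 lay above wild type, beside 12.1% of all genes. The 9 macrophage markers summed to 294, 266 and 308 CPM in knockout and 441, 585 and 248 CPM in wild type libraries, with Csf1r the largest part in wild type, and 6 of them were estimated higher and 3 lower. The part of these cells in the values of Serping1 was not tested. Among 10 complement and contact genes, 7 were tested and 0 passed, with 6 estimates higher, 1 lower, 0 without overlap and a median of 0.64. C1s1, the C1s protease that Serping1 inhibits, stood at 18.6, 40.1 and 39.1 CPM in knockout and 27.2, 11.9 and 9.93 CPM in wild type libraries (log2 fold change 0.99 ± 0.46, SE, adjusted p = 0.358). C1qc, a chain of C1q, stood at 6.08, 15.6 and 12.4 CPM in knockout and 10.6, 2.07 and 5.38 CPM in wild type libraries (0.91 ± 0.61, SE).

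**Figure D3:**
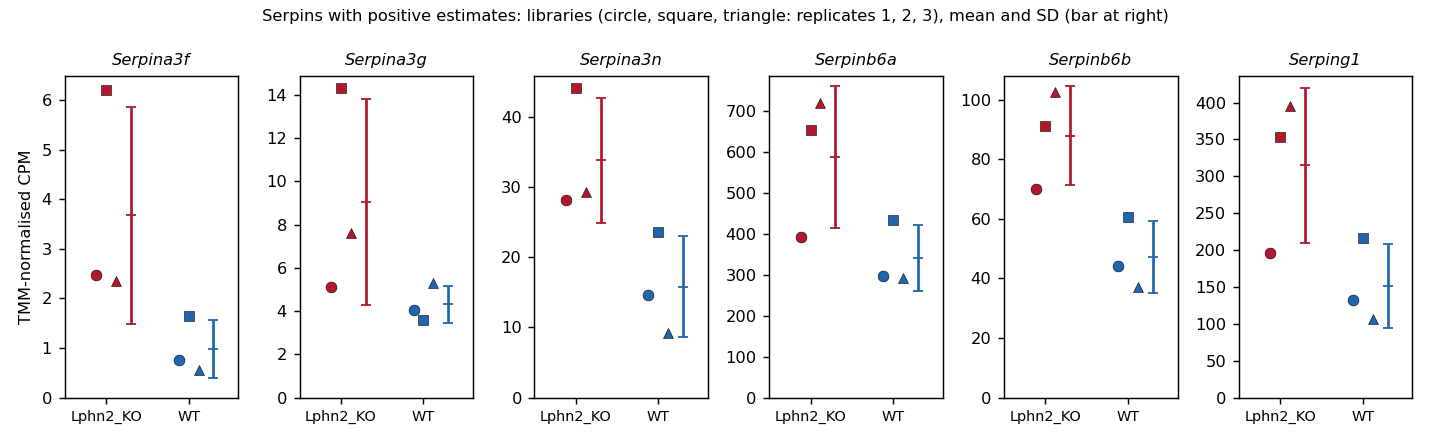
TMM-normalised CPM from 0 for 6 of the 7 serpins with a positive estimate and an unadjusted p under 0.05, Serpinb9 being plotted with its cluster, by library, with the group mean and SD as a bar beside the points. In Serpina3f, Serpina3n and Serpinb6b all 3 knockout libraries lie above all 3 wild type libraries, while in Serpina3g, Serpinb6a and Serping1 knockout replicate 1 lies within the wild type range.

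Lysosomal cysteine proteases, the class in which Serpina3g has targets, gave 9 tested genes of 9, with 0 past the threshold, 7 estimates higher and 2 lower. In 2 of the 9 every knockout value lay above every wild type value, beside 12.1% of all genes, and in none below. Ctso stood at 12.5, 24.9 and 30.2 CPM in knockout and 9.89, 11.7 and 8.78 CPM in wild type libraries (log2 fold change 1.15 ± 0.35, SE, adjusted p = 0.209). Ctsk, cathepsin K, stood at 108, 227 and 276 CPM in knockout and 63.5, 137 and 82.02 CPM in wild type libraries (1.11 ± 0.41, SE, adjusted p = 0.27).

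Plasma serpins of the yolk sac and liver type were read lower in the knockout and had most of their summed wild type level in 1 library. Serpina1a (ENSMUSG00000066366.14, chromosome 12, 103853589 to 103863562, minus strand), an alpha-1 antitrypsin that inhibits neutrophil elastase, had 0.471, 0.133 and 0 CPM in knockout replicates 1, 2 and 3, against 1.96, 2.07 and 17.2 CPM in wild type replicates 1, 2 and 3. In counts these were 12, 2 and 0 in knockout and 54, 34 and 660 in wild type libraries. The groups did not overlap, and wild type replicate 3 held 81.1% of the wild type sum. The log2 fold change was -4.95 ± 1.3 (SE, adjusted p = 0.183), and the gene passed with DESeq2 (adjusted p = 0.00069, over the alternatives 0.00069 to 1). Without wild type replicate 3 the log2 fold change was -3.16 (adjusted p = 0.406). Of its 3′ end words 55.1% occurred in other genes, chiefly Serpina1b to Serpina1e, so the 5 copies were also summed. Together they had 0.98, 0.6 and 0.428 CPM in knockout and 4.27, 3.17 and 27.2 CPM in wild type libraries (log2 fold change with these and Serpina1f, read at 0, as 1 row -4.07 ± 0.95, SE, adjusted p = 0.171). Serpina1c was at 0 counts in all 3 knockout libraries, against 9, 9 and 99 counts in wild type replicates 1, 2 and 3. Taken as they are, with 3 counts per library as the floor, these put the knockout at least 6.52-fold lower. Without wild type replicate 3 it was at least 2.47-fold lower, a bound added after the values were seen. But all 3 wild type counts were multiples of 9, and neither bound holds if 9 counts stand for 1 read.

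Serpina10, the protein Z-dependent inhibitor of factor Xa, had 0.784, 0 and 0.285 CPM in knockout and 1.52, 2.07 and 13.9 CPM in wild type libraries, without overlap (log2 fold change -3.93 ± 1.28, SE, adjusted p = 0.232). It too passed with DESeq2 (adjusted p = 0.0132, over the alternatives 0.0132 to 1), and stood at -2.24 without wild type replicate 3 (adjusted p = 0.525). Serpina6, corticosteroid-binding globulin, had 0.118, 0.133 and 0.428 CPM in knockout replicates 1, 2 and 3, against 0, 0.0609 and 31.8 CPM in wild type replicates 1, 2 and 3. Its level in wild type came almost wholly from replicate 3, with 99.8% of the wild type sum, and wild type replicates 1 and 2 lay below every knockout library. It failed the filter for testing, which asks for about 10 counts in at least 3 libraries.

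Serpinc1, Serpind1 and Serpinf2, plasma inhibitors of thrombin or plasmin, were also highest in wild type replicate 3, at lower levels. Serpinc1, antithrombin, had 0.706, 1.2 and 1.35 CPM in knockout and 1.7, 1.71 and 5.33 CPM in wild type libraries (log2 fold change -1.44 ± 0.64, SE, adjusted p = 0.341). Serpind1, heparin cofactor II, had 0.627, 0.4 and 0.428 CPM in knockout and 0.761, 0.67 and 3.48 CPM in wild type libraries (-1.74 ± 0.82, SE, adjusted p = 0.366). Serpinf2, alpha-2 antiplasmin, had 0.902, 0.333 and 0 CPM in knockout and 1.67, 1.58 and 6.92 CPM in wild type libraries (-2.96 ± 1.15, SE, adjusted p = 0.288). In none of the 3 genes did the groups overlap, and the gap between the groups was small beside the spread within wild type. Without wild type replicate 3 the log2 fold changes were -0.66 for Serpinc1, -0.55 for Serpind1 and -1.89 for Serpinf2. Serpinc1 and Serpind1 overlap other genes on the opposite strand, Zbtb37 and Pi4ka among them, and how the counts treat strand is not stated.

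The 14 yolk sac and visceral endoderm markers, which are shared in part with the liver, summed to 214, 26.1 and 39.6 CPM in knockout and 456, 605 and 757 CPM in wild type libraries. Of these 13 were tested, all 13 were estimated lower and 9 had every knockout value below every wild type value, as 9.39% of all genes did, and Amn, Apoa4, Cubn and Hnf4a were at 0 in knockout replicates 2 and 3. Alb, albumin, was at 43.1 CPM in wild type replicate 3 and at most 0.600 CPM in any other library. The markers did not share an order among the wild type libraries. Afp, Alb, Ambp, Fgb and Trf were highest in replicate 3. Amn, Apoa1, Apoa4, Apob, Apoc2, Cubn, Hnf4a and Rbp4 were lowest of wild type there, and Ttr lay between. By replicate number, wild type values ran 173, 212 and 342 CPM for Afp, but 100, 145 and 89.3 CPM for Rbp4. The part of yolk sac tissue in the values of the plasma serpins was not tested.

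**Figure D4:**
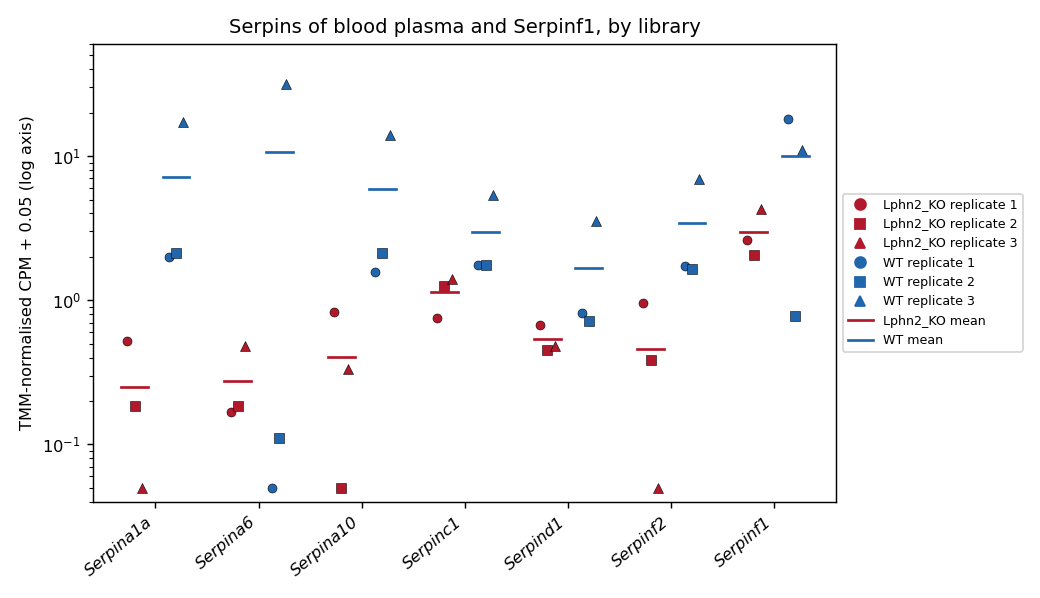
TMM-normalised CPM plus 0.05 on a log axis for 6 plasma serpins and Serpinf1, with points for libraries, marker shape for replicate and lines for group means. Wild type replicate 3 is the highest library for the 6 plasma serpins, reaching 31.8 CPM for Serpina6, and points at 0.05 are libraries with 0 counts.

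Plasma proteases and cofactors that these serpins control were read in the same libraries. Of 12 coagulation genes 11 were tested and 0 passed, with 4 estimates higher and 7 lower, 1 above and 3 below wild type without overlap (12.1% and 9.39% of all genes), and a median of -0.56 with Proc at its fitted value or at its bound. Proc, protein C, was at 0 counts in all 3 knockout libraries, against 2.9, 1.22 and 4.91 CPM in the wild type libraries numbered 1, 2 and 3. It was at least 17-fold lower in the knockout by the same floor of 3 counts per library, and at least 11.6-fold lower without wild type replicate 3. Its wild type counts of 80, 20 and 188 were all multiples of 4, and the bound would be lower if 4 counts stand for 1 read. Procr, the endothelial protein C receptor, stood at 1136, 402 and 867 CPM in knockout and 2929, 3765 and 1735 CPM in wild type libraries, without overlap (log2 fold change -1.81 ± 0.44, SE, adjusted p = 0.173).

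**Figure D5:**
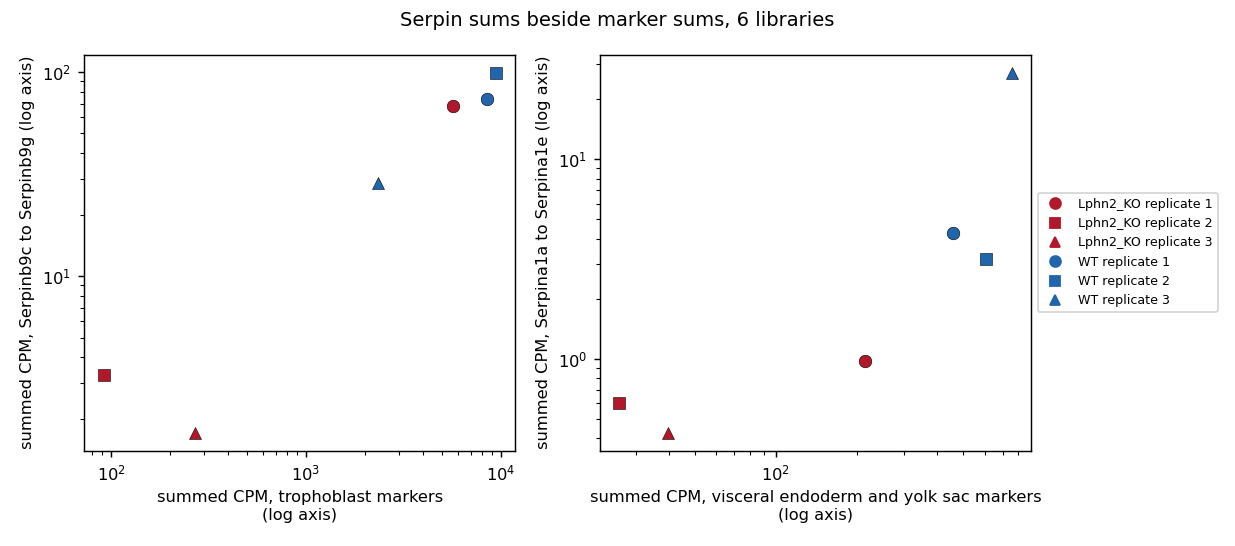
Summed CPM of Serpinb9c to Serpinb9g beside the trophoblast markers (left) and of Serpina1a to Serpina1e beside the yolk sac markers (right), both axes log, 1 point per library. Knockout replicates 2 and 3 lie at the low end of both plots. Knockout replicate 1 lies among wild type on the left and between the groups on the right. Wild type replicate 3 is lowest of wild type on the left and highest on the right. Its high yolk sac sum comes from Afp, Alb, Ambp, Fgb and Trf. Other markers in that sum, Amn, Cubn and Rbp4 among them, were lowest of wild type in this library.

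Serpine2 (ENSMUSG00000026249.10, chromosome 1, 79794197 to 79861180, minus strand), protease nexin 1, an inhibitor of thrombin and urokinase at the cell surface, stood at 156, 123 and 111 CPM in knockout replicates 1, 2 and 3, against 181, 137 and 129.6 CPM in wild type replicates 1, 2 and 3. Knockout replicate 1 lay above wild type replicates 2 and 3, so the groups overlapped, with a log2 fold change of -0.2 ± 0.21 (SE, 95% interval -0.7 to 0.30), and it turned to 0.0847 with knockout replicate 1 alone.

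Genes of plasminogen activation, a system that Serpine2 restrains, gave 8 tested genes of 9, with 0 past the threshold, 5 estimates higher, 3 lower and a median of 0.24. Plg, plasminogen, stood at 0.235, 0.0667 and 0.0713 CPM in knockout and 1.56, 0.914 and 5.72 CPM in wild type libraries, without overlap (log2 fold change -4.3 ± 0.99, SE, adjusted p = 0.17). Plaur, the urokinase receptor, stood at 21.2, 30.9 and 26.5 CPM in knockout and 14.7, 21.1 and 10.7 CPM in wild type libraries, also without overlap and in the other direction (0.76 ± 0.29, SE, adjusted p = 0.288).

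Serpinh1 (ENSMUSG00000070436.12, chromosome 7, 99345376 to 99353239, minus strand), also named HSP47, holds procollagen in the endoplasmic reticulum and inhibits no protease. It took 65.9% to 70.02% of serpin counts in knockout and 61.4% to 80.1% in wild type libraries. It stood at 3253, 4305 and 3559 CPM in knockout replicates 1, 2 and 3, against 4774, 2431 and 3593 CPM in wild type replicates 1, 2 and 3. The knockout values lay within the wild type range, and the log2 fold change was 0.042 ± 0.28 (SE, adjusted p = 0.955), with a 95% interval of -0.61 to 0.69. Changes of up to that size in either direction cannot be told from none here. The sign turned without knockout replicate 2 (-0.0681), without wild type replicate 2 (-0.16) and with knockout replicate 1 alone (-0.12). Its 6 counts were all multiples of 4, and dividing them by it changed no call.

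Collagens and their modifying enzymes, the clients and co-workers of Serpinh1, gave 14 tested genes of 14, with 0 past the threshold, 5 estimates higher, 9 lower and a median of -0.20. Plod2, a lysyl hydroxylase of collagen, stood at 221, 413 and 419 CPM in knockout and 139, 165 and 128 CPM in wild type libraries, without overlap (log2 fold change 1.29 ± 0.28, SE, adjusted p = 0.166). Col5a1, a fibrillar collagen chain, stood at 7.61, 10.1 and 10.98 CPM in knockout and 56.3, 8.96 and 42.2 CPM in wild type libraries, where wild type replicate 2 lay within the knockout range (-1.91 ± 0.6, SE, adjusted p = 0.221).

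Serpinf1, pigment epithelium-derived factor, a secreted protein that restrains vessel growth without inhibiting a protease, stood at 2.55, 2 and 4.28 CPM in knockout replicates 1, 2 and 3, against 18.1, 0.731 and 10.9 CPM in wild type replicates 1, 2 and 3. Wild type replicate 2 was the lowest library and wild type replicates 1 and 3 the highest (log2 fold change -1.76 ± 0.94, SE, adjusted p = 0.408). Serpini1, neuroserpin, which inhibits tissue plasminogen activator in the nervous system, had 0.353, 2.27 and 2.42 CPM in knockout and 1.05, 1.95 and 4.6 CPM in wild type libraries. The highest value was in wild type replicate 3, where the neural markers were also highest, and its estimate of -0.61 turned to 0.14 without that library. The part of neural tissue in its values was not tested.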

How the data were processed

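The authors deposited a table of raw counts for each sample, by gene symbol, with whole numbers whose totals differ between samples. Per the labels' protocols, libraries were made from 500 ng of Trizol-extracted total RNA with the Lexogen QuantSeq kit. The submitters' processing notes name Bowtie2, edgeR and the mm10 build. Not given in the sources used here: their versions and roles, the annotation, the counting program, and how strand and multi-mapping reads were treated.

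In edgeR 4.0.16, filterByExpr with a minimum count of 10 left 13848 genes, which were scaled by TMM and compared by the quasi-likelihood test without covariates. Adjusted p-values are Benjamini-Hochberg over all genes tested, at a threshold of 0.05, and intervals are 95% t intervals. Test and script were checked on simulated data with the same dispersion for every gene and changes only in well-read genes. That check does not cover low or variable serpins. DESeq2 1.42.0 and limma 3.58.1 were run beside it in R 4.3.3. Gene positions come from GENCODE M21 and promoters from RefSeq, both on GRCm38, and 52 of 63 serpins matched a promoter. Identities used Biopython 1.88 and figures matplotlib 3.10.9 under Python 3.11.15. Groups were taken from the sample titles. No label says that samples are separate embryos, so p-values measure the spread between samples, which may be technical. The first number of a code in the descriptions, whose meaning is not stated, is 45 in 5 samples but 32 in wild type replicate 1. The members, gene lists and tests were chosen with earlier results of these data known. All serpins averaging at least 1 CPM are named except 1 that is not reported here, and of each partner list the members past the threshold or the 2 with the smallest p. Alternatives were other filters, scalings and tests, the replicate block, removal of common divisors and of identical rows, summed subfamilies, and libraries left out.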

Additional observations from a re-analysis of the deposited data

How the results depend on the processing

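Over 26 serpins and 19 alternatives, 465 comparisons had a value, of which 444 kept direction and side of the threshold, 7 passed it and 14 turned direction. With DESeq2, 1 serpin was higher and 2 were lower, among 470 genes higher and 387 lower. Leaving out 1 library at a time gave 0 to 4 serpins lower, 0 to 252 genes higher and 0 to 466 genes lower, the highest without knockout replicate 1. Lower genes numbered 0 when knockout replicate 2, knockout replicate 3 or wild type replicate 1 was left out, 11 and 10 when wild type replicate 2 or 3 was, 0 with 1 symbol kept per identical set of counts, 0 with the replicate block and 0 with knockout replicate 1 alone. The last assumes that a lone sample varies like wild type. It turned Serpina3m to -0.69, Serpinb11 to -1.54, Serpinb6c to -1.57, Serpinb9c to 0.0715, Serpinb9d to 0.36, Serpinb9f to 0.0924, Serpine2 to 0.0847 and Serpinh1 to -0.12. The replicate block called 0 serpins and turned none of these. Ranges with 1 library left out were -0.51 to 1.32 for Serpina3m, -0.000806 to 1.22 for Serpinb11, -0.16 to 0.30 for Serpinh1 and -0.98 to 0.14 for Serpini1. The cause was not tested. Deviations from the group mean correlated at 0.127, -0.0238 and 0.0706 between samples numbered 1, 2 and 3. No pairing by number was visible, but 3 samples per group cannot exclude a shared litter or batch. Of the scalings, none turned a serpin. Low counts limit the plasma serpins and Serpinb9c to Serpinb9g in knockout libraries, and 3 samples per group limit every test.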
